A study of Mus musculus with 31 samples.

Results

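The transcripts of 10 subunits of the AMPA and NMDA receptors were examined in 31 punches labelled as caudate putamen (CPu), the dorsal part of the striatum, from mice labelled female. The markers of several WT vehicle libraries, most of all mouse 2, go against that tissue label, as given below. The 10 genes were chosen by name from the 52636 gene identifiers of the expression table, by a rule that uses names and no measured value. They are 4 AMPA receptor subunits (Gria1 to Gria4) and 6 NMDA receptor subunits (Grin1, Grin2a to Grin2d and Grin3a). All 10 were detected in every mouse and all 10 passed the filter on low values in each comparison. The mice were 8 to 11 weeks old and of the C57BL/6NTac-Brd1 line (in the study's methods C57BL/6NTac-Brd1tm1.2Arte/AborgMmucd). They were wild type (WT) or heterozygous for a targeted deletion within Brd1 (Brd1+/-), a gene for a chromatin scaffold protein, and were given vehicle (saline) or imipramine (IMN, a tricyclic antidepressant) at 10 mg/kg. There were 8 WT and 7 Brd1+/- mice on vehicle and 8 WT and 8 Brd1+/- mice on IMN. Each was sampled by 1 punch of the right hemisphere after behavioral testing. Because each sample is a bulk punch, fewer cells of a type and less RNA per cell cannot be told apart in any value below.

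AMPA receptors carry most fast excitatory transmission in the brain, as tetramers of the proteins GluA1 to GluA4, which Gria1 to Gria4 encode. The GluA2 subunit, once its transcript is edited, keeps calcium from passing through the channel. NMDA receptors join the obligatory GluN1 subunit (Grin1) with GluN2 subunits (Grin2a to Grin2d), which bind glutamate and set how fast the channel closes, or with GluN3 subunits (Grin3a), which bind glycine and lower calcium entry. In the striatum these receptors receive the input that cortex and thalamus send to the projection neurons, and GluN2B predominates among the GluN2 subunits of these neurons.

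Values are TPM, a transcript abundance corrected for gene length that adds up to the same total in each library. Levels of different genes can therefore be set side by side within a mouse. The number of reads behind each value is not in the table, and the study's methods give only a minimum per sample, and the error given is the spread between mice. Brd1 itself checks the genotype labels. WT mice on vehicle ran from 18.3 to 26.9 TPM and Brd1+/- mice from 11.1 to 16.0, and on IMN the ranges were 14.6 to 22.5 and 11.3 to 13.9 TPM, so that the genotypes overlapped under neither treatment. Markers of the labelled tissue were high in most mice but not in all. In the library labelled WT vehicle mouse 2, the defining markers of striatal projection neurons were near 0, against its tissue label. Drd1, the D1 dopamine receptor, was at 1.37 TPM, Drd2 at 0.748 and Adora2a at 1.02, where the lowest values in the other groups were 104, 137 and 112 TPM. The score of 13 projection neuron markers, their mean log2(TPM + 1), was 3.06 in that library and 5.32 to 8.16 in the other 7 WT vehicle mice, against 7.29 to 8.18 in the remaining groups. The score of 10 cortical neuron markers was 4.36 to 5.50 in WT vehicle mice 1 to 5 and 7, and 0.844 and 0.906 in mice 6 and 8. Slc17a7, the vesicular glutamate transporter of cortical neurons, had a median of 932 TPM in this group. The cortical markers summed to more than the projection neuron markers in WT vehicle mice 1 (1878 against 1298 TPM) and 2 (1434 against 307 TPM), and mice 4 and 5 held 1487 against 3440 and 1744 against 2557 TPM. The summed level of these 10 markers was 11.96 to 1878 TPM in WT vehicle, 18.8 to 228 in Brd1+/- vehicle, 10.4 to 1066 in WT IMN and 14.6 to 371 TPM in Brd1+/- IMN mice, with Neurod1 and Emx1 each at 0 in 1 WT vehicle mouse. That of the 13 projection neuron markers was 307 to 10280, 8349 to 9702, 4974 to 9107 and 6870 to 9475 TPM in the same order. The cortical score ranged from 1.18 to 2.97 in Brd1+/- vehicle, 0.825 to 4.49 in WT IMN and 0.971 to 3.33 in Brd1+/- IMN mice. WT vehicle mouse 7, labelled female, had a sum of 26.8 TPM over 4 Y-linked genes, where the next highest mouse had 0.188. Mice 2 and 7 of this group stay in the main values below, and the main results that rest on the group are also given without both.

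Grin1 had the highest level of the 10 genes in each group, with means between 249.9 ± 37.2 TPM (SD, n = 8, Brd1+/- IMN) and 289.8 ± 28.4 TPM (SD, n = 8, WT vehicle). Gria2 and Gria1 followed, at 168 ± 26.0 and 158 ± 24.4 TPM (SD) over all 31 mice. Gria3 was at 76.9 ± 22.0, Grin2b at 37.6 ± 7.64, Gria4 at 33.2 ± 9.35, Grin2c at 17.1 ± 1.95 and Grin2a at 14.99 ± 3.70 TPM. Grin3a and Grin2d were lowest, at 4.04 ± 1.84 and 3.98 ± 1.62 TPM. Neighbors in this order that held in all 31 mice were Gria3 over Grin2b, Gria4 over Grin2c and Grin2a over Grin3a. Gria2 was above Gria1 in 22 of 31 mice and Grin3a above Grin2d in 15, and neither pair was apart beyond its spread over all mice. The order of a further 2 pairs differed between groups. Gria4 was above Grin2b in 7 of 8 WT vehicle mice, but Grin2b was above Gria4 in 7 of 7 Brd1+/- vehicle mice and in 7 of 8 mice of each IMN group. Grin2a was above Grin2c in 6 of 8 WT vehicle mice, but Grin2c was above Grin2a in 6 of 7 Brd1+/- vehicle mice and in 7 of 8 mice of each IMN group. Within the 4 GluN2 transcripts of WT vehicle mice, Grin2b held 44.2 ± 8.81% (SD, n = 8) of the summed TPM, Grin2a 24.9 ± 5.00%, Grin2c 23.4 ± 4.92% and Grin2d 7.53 ± 3.19%. In Brd1+/- vehicle mice the shares were 53.2 ± 6.14% (SD, n = 7) for Grin2b, 18.6 ± 1.76% for Grin2a, 23.9 ± 5.17% for Grin2c and 4.39 ± 0.824% for Grin2d. In both IMN groups Grin2b held between 52.4 and 53.6% and Grin2a between 18.8 and 18.9% on average. Among the AMPA transcripts, the share of Gria4 was 9.58 ± 2.19% in WT vehicle mice and 6.53 ± 0.774% in Brd1+/- vehicle mice, and that of Gria1 32.7 ± 6.11% and 39.0 ± 2.45%. Without mice 2 and 7 the WT vehicle shares were 46.2% for Grin2b, 23.2% for Grin2a, 24.1% for Grin2c, 6.51% for Grin2d, 9.94% for Gria4 and 34.98% for Gria1 (n = 6), and without mouse 2 alone 46.8, 23.3, 23.4, 6.47, 9.95 and 34.2% (n = 7) in the same order.

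**Figure D1:**
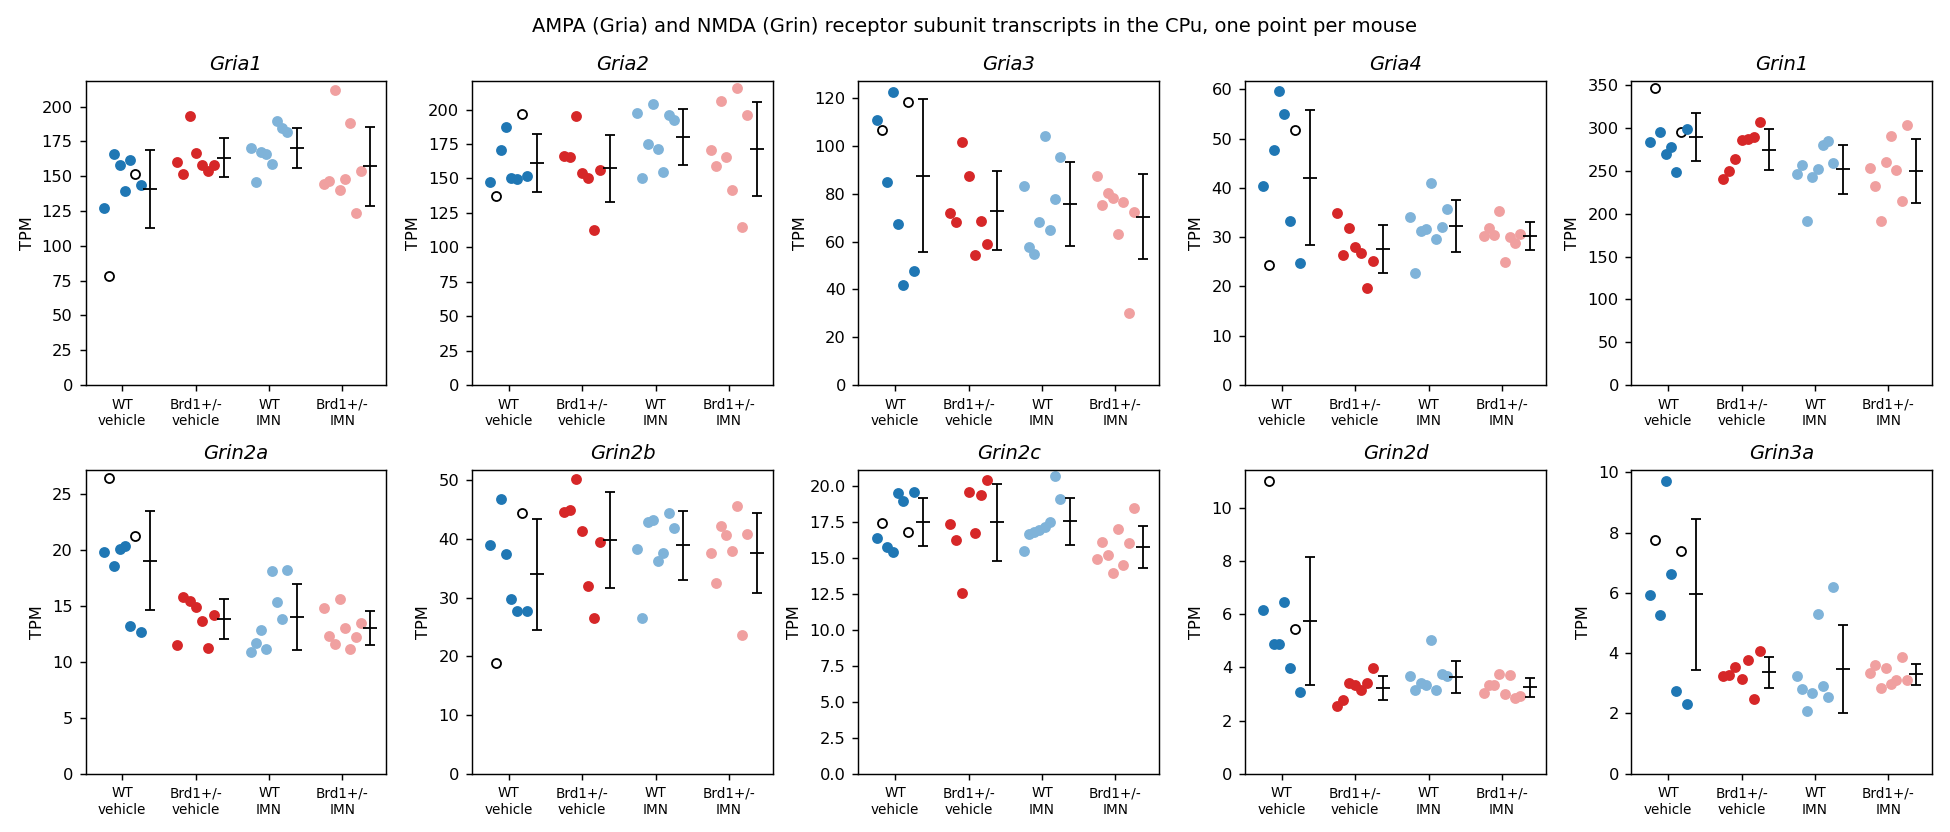
TPM of each of the 10 subunit genes (y axis from 0) in each mouse (points), by group, with a dash at the mean and a bar for the SD. Open black circles are WT vehicle mice 2 and 7. WT vehicle mice spread more than the other groups for Grin2a, Grin2d, Grin3a and Gria4, with mice above every Brd1+/- vehicle mouse and others within or, for Grin3a, also below their range, and the 2 IMN groups overlap.

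The genes lie on 9 chromosomes of GRCm38. Grin2a spans chr16:9567898-9995560 and Grin2d chr7:45831883-45878378, both on the minus strand, Grin3a spans chr4:49661611-49845744 (minus strand) and Gria4 chr9:4417896-4796234 (minus strand). Gria1 lies at chr11:57011387-57330244 (plus strand) and Grin2b at chr6:135713233-136173511 (minus strand). The others are Gria2 at chr3:80681450-80802835, Grin1 at chr2:25291181-25319187 and Grin2c at chr11:115249169-115267243, on the minus strand, and Gria3 at chrX:41400854-41678601 on the plus strand. Exons of Grin1 overlap those of the antisense gene Grin1os, which reached 21.1 TPM, and exons of Grin2d those of the antisense gene Gm45441, which reached 9.82 TPM. Whether the counting used the strand is not given in the sources used here, so reads of these pairs may not be told apart. This bears most on Grin2d, whose own level is low. Promoter sequences were at hand for 5 of the 10 genes, and a pair is shown. Grin1 is the most abundant of the 10 genes, and Gria4 the AMPA subunit with the lowest Brd1+/- mean relative to WT mice under vehicle. They are the 250 bases before the RefSeq start (GRCm38.p6), 5′ to 3′ on the gene's strand, at chr2:25319188-25319437 for Grin1 and chr9:4796235-4796484 for Gria4. Capitals mark the E-box CACGTG and the CRE core TGACG, searched on both strands and thus also written CGTCA.

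Grin1: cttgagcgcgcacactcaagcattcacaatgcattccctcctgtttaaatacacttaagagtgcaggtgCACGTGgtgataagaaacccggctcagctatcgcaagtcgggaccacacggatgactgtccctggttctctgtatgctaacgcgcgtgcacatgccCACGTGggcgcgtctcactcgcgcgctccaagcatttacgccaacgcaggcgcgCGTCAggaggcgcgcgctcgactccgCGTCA

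Gria4: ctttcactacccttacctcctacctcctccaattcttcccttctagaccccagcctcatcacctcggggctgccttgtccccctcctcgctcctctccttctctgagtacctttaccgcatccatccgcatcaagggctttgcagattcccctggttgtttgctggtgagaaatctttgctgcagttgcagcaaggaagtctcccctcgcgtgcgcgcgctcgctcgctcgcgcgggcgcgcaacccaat

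The Grin1 window held 2 E-boxes and 2 CRE cores. The Gria4 window held none of the motifs searched, which beside these were the full CRE TGACGTCA, the GC box GGGCGG, the TATA box TATAAA and the left arm of RE1, TTCAGCACC. Of all 27025 promoters of this length, 6.05% held the E-box, 17.9% the CRE core, 1.62% the full CRE (which contains the core), 32.9% the GC box, 13.0% the TATA box and 0.285% the RE1 arm. GC content was 58.8% in both windows, against a median of 52.0% over all promoters. A match describes the letters only, and a window without a match says nothing of the factor.

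The comparison of Brd1+/- with WT mice under vehicle asked whether reduced Brd1 changes these transcripts. Of the 10 subunits, 2 were lower in Brd1+/- mice at p under 0.01 (limma on log2(TPM + 1)), Grin2a and Grin2d, and 0 were higher. Grin2a encodes the GluN2A subunit, whose share rises as forebrain synapses mature, and Grin2d the GluN2D subunit, found mainly in interneurons. Over all 23200 genes tested, 12.1% were lower and 1.47% higher at this threshold (89.2% of calls on the low side, and 56.5% with median-of-ratios scaling). At an FDR of 5% no gene was called (0% of all genes, 0 of the 10 subunits). An unadjusted p under 0.05 was found for 4 subunits, beside 7168 of the 23200 genes. The median log2 fold change of the 10 was -0.13, against -0.13 for all genes tested.

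Grin2d ranged from 3.08 to 11.0 TPM (median 5.17) in WT and from 2.55 to 3.96 TPM (median 3.34) in Brd1+/- vehicle mice. Of the 8 WT mice 7 lay above every Brd1+/- mouse, mouse 6 only just at 3.98 TPM, and mouse 8 lay within their range. The mean was 5.73 ± 2.40 TPM (SD, n = 8) against 3.22 ± 0.461 TPM (SD, n = 7), 56.2% of WT, with a log2 fold change of -0.61 ± 0.18 (SE; limma, adjusted p = 0.0564). Without WT mice 2 and 7 it was -0.46 (limma, adjusted p = 0.165). The p stayed under 0.01 with each of the 15 mice left out in turn and with median-of-ratios scaling (-0.45; limma, adjusted p = 0.105), but not with quantile normalization (-0.43; limma, adjusted p = 0.11), nor with the score of cortical or of projection neuron markers as a covariate (-0.31 and -0.23; limma, adjusted p = 0.665 and 0.602).

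Grin2a ranged from 12.7 to 26.4 TPM (median 19.9) in WT and from 11.3 to 15.7 TPM (median 14.2) in Brd1+/- vehicle mice. Of the WT mice 6 lay above every Brd1+/- mouse, and mice 6 and 8, at 13.2 and 12.7 TPM, lay among them. The mean was 19.0 ± 4.41 TPM (SD, n = 8) against 13.8 ± 1.79 TPM (SD, n = 7), with a log2 fold change of -0.41 ± 0.14 (SE; limma, adjusted p = 0.0701). Without WT mice 2 and 7 it was -0.30 and no longer under the threshold (limma, adjusted p = 0.2). Of the 15 fits that left out 1 mouse only those without WT mouse 6 or 8 or Brd1+/- mouse 2 or 3 kept it under 0.01 (limma, adjusted p between 0.0147 and 0.134 over the 15). Median-of-ratios scaling (-0.23; limma, adjusted p = 0.212) and quantile normalization (-0.21; limma, adjusted p = 0.235) ended the call too, as did the cortical and projection neuron covariates (-0.12 and -0.18; limma, adjusted p = 0.777 and 0.651).

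Grin3a and Gria4 had lower means in Brd1+/- vehicle mice as well, without passing the threshold. Grin3a, for the glycine-binding GluN3A subunit of young synapses, ranged from 2.30 to 9.70 TPM (median 6.29) in WT and from 2.46 to 4.08 TPM (median 3.28) in Brd1+/- mice. Again 6 of 8 WT mice lay above every Brd1+/- mouse, but WT mouse 8 lay below all of them, and the log2 fold change was -0.59 ± 0.22 (SE; limma, adjusted p = 0.0942). Without WT mice 2 and 7 it was -0.46 (limma, adjusted p = 0.261). Gria4, for the fast GluA4 subunit, ranged from 24.4 to 59.7 TPM (median 44.0) in WT and from 19.7 to 34.8 TPM (median 26.9) in Brd1+/- mice. Its log2 fold change was -0.54 ± 0.19 (SE; limma, adjusted p = 0.0813), and without WT mice 2 and 7 it was -0.60 with an unadjusted p under the threshold (limma, adjusted p = 0.165). Gria4 and Grin2d were then the 2 subunits called, where 5.19% of 22609 genes were lower and 0.637% higher.

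The remaining 6 subunits did not pass the test. Gria1, for the GluA1 subunit that is inserted into synapses during potentiation, had a higher mean in Brd1+/- mice, as did Grin2b. WT values ran from 78.3 to 166 TPM (median 148) and Brd1+/- values from 152 to 193 TPM (median 158), and 5 of 8 WT mice lay below every Brd1+/- mouse. Its log2 fold change was 0.24 ± 0.13 (SE; limma, adjusted p = 0.223), and 0.13 without WT mice 2 and 7. Grin2b, for GluN2B, ran from 19.0 to 46.8 TPM (median 33.6) in WT and from 26.6 to 50.3 TPM (median 41.4) in Brd1+/- mice, with a log2 fold change of 0.25 ± 0.18 (SE; limma, adjusted p = 0.359), and 1 WT mouse lay below every Brd1+/- mouse. It was 0.14 without WT mouse 2 and 0.19 without mice 2 and 7 (limma, adjusted p = 0.572 and 0.465). Gria3, on the X chromosome, ran from 42.0 to 123 TPM in WT and from 54.3 to 102 TPM in Brd1+/- mice. Of the WT mice 4 lay above and 2 below every Brd1+/- mouse. It differed by -0.19 ± 0.23 (SE) on the log2 scale, and by -0.04 without WT mice 2 and 7. Gria2, Grin1 and Grin2c differed least, at -0.04 ± 0.11, -0.07 ± 0.08 and -0.01 ± 0.10 (SE), with 95% confidence intervals of -0.27 to 0.18, -0.24 to 0.09 and -0.22 to 0.20. Without WT mice 2 and 7 they were at -0.03, -0.02 and -0.02. The sign of Gria2, Gria3, Grin1 and Grin2c turned positive with median-of-ratios scaling or quantile normalization, the first of which moved the median of all genes from -0.13 to 0.0023. Gria1 and Grin2b stayed positive and Gria4, Grin2a, Grin2d and Grin3a negative under both.

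**Figure D2:**
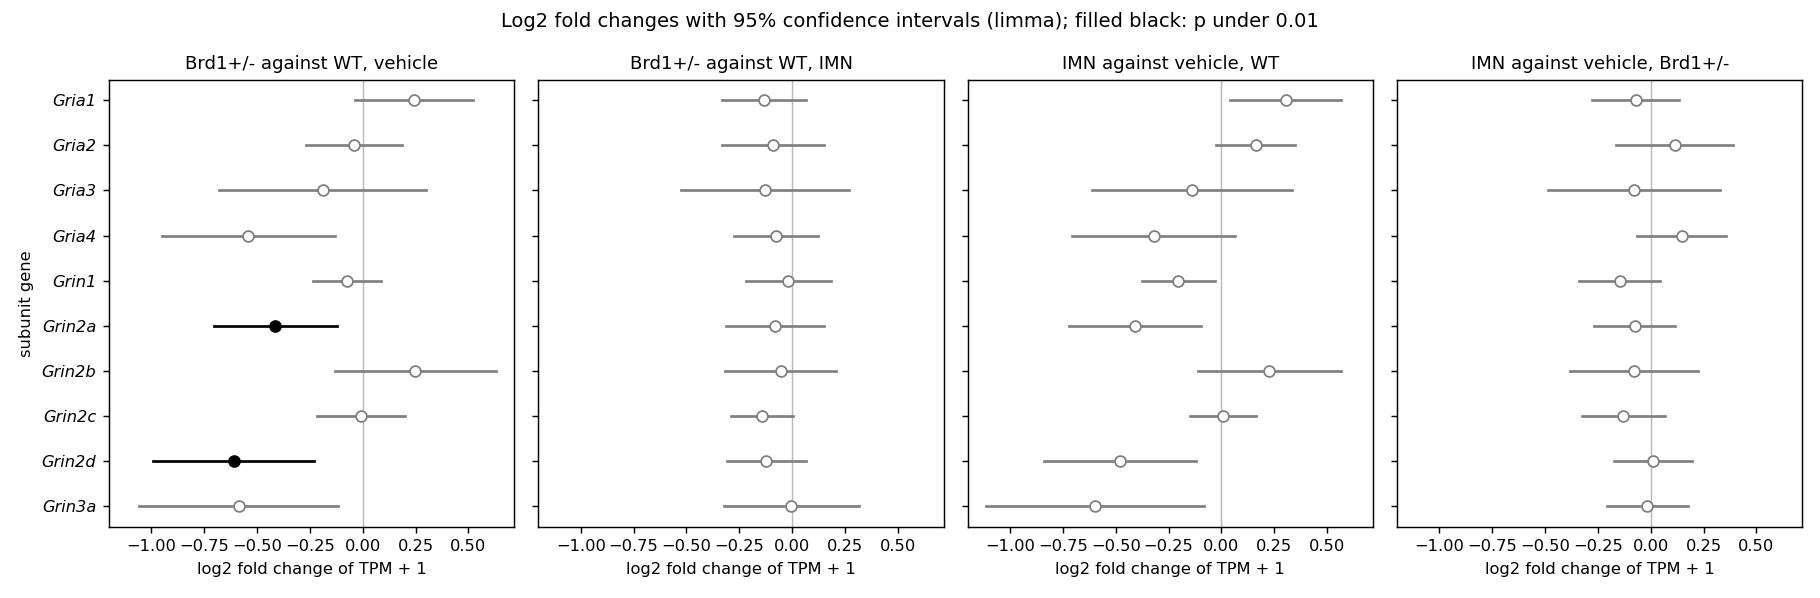
Log2 fold change of TPM + 1 (x axis) with its 95% confidence interval for each subunit (rows), in the 4 comparisons of 2 groups (panels); filled black points have p under 0.01 and open gray points do not. Grin2a at -0.41 and Grin2d at -0.61 under vehicle are the filled points. In the panels of genotype under IMN and of IMN in Brd1+/- mice the intervals of all 10 subunits include 0.

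Within WT vehicle mice Grin3a, Grin2a, Gria3 and Grin2d were higher in the mice with high cortical marker scores than in the other two, and Gria4 was so less evenly. The scores fall into 2 clusters there, so no r is given within the group. The 6 WT vehicle mice with scores of 4.36 and above held Grin2a at 18.5 to 26.4 TPM, Grin2d at 4.86 to 11.0 and Grin3a at 5.26 to 9.70, and mice 6 and 8, with scores under 1, held Grin2a at 13.2 and 12.7, Grin2d at 3.98 and 3.08, and Grin3a at 2.74 and 2.30 TPM. Gria3 was at 67.3 to 123 TPM in the 6 and at 42.0 and 47.8 TPM in mice 6 and 8. Gria4 was at 40.4 to 59.7 TPM in WT vehicle mice 1, 3, 4, 5 and 7 and at 33.2 and 24.7 TPM in mice 6 and 8, but mouse 2, with the highest score of the group at 5.50, had its lowest Gria4 at 24.4 TPM. WT IMN mice 5 and 8, with scores of 4.49 and 3.97, held Grin2a at 18.1 and 18.2, Grin3a at 5.32 and 6.19 and Gria3 at 104 and 95.3 TPM, the highest of their group. Their Grin2d was at 5.04 and 3.66 TPM, the second below the 3.75 TPM of mouse 7, which had the lowest score of the group at 0.825. Over the 23 mice outside the WT vehicle group, Pearson's r between log2(TPM + 1) and the score was 0.72 for Grin3a, 0.50 for Grin2a, 0.42 for Grin2d, 0.24 for Gria4 and 0.13 for Gria3, and without the 2 mice farthest from the median score 0.48, 0.18, 0.04, -0.14 and -0.20. These mice share 3 treatment and genotype groups and 1 table, and the values are a description. With the cortical score as a covariate 0 of 10 subunits were under 0.01, where 1.72% of all genes were, and with the projection neuron score again 0 of 10, beside 1.27% of all genes. All 10 cortical markers had lower and all 13 projection neuron markers higher fitted values in Brd1+/- than in WT vehicle mice, with median log2 fold changes of -2.03 and 1.59 and 2 of each list past p under 0.01. Of 10 interneuron markers 4 had lower and 6 higher fitted values, and 3 and 2 of these passed p under 0.01. Under IMN the medians of the cortical and projection neuron lists were -0.14 and 0.03, with 0 markers past the threshold (limma).

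**Figure D3:**
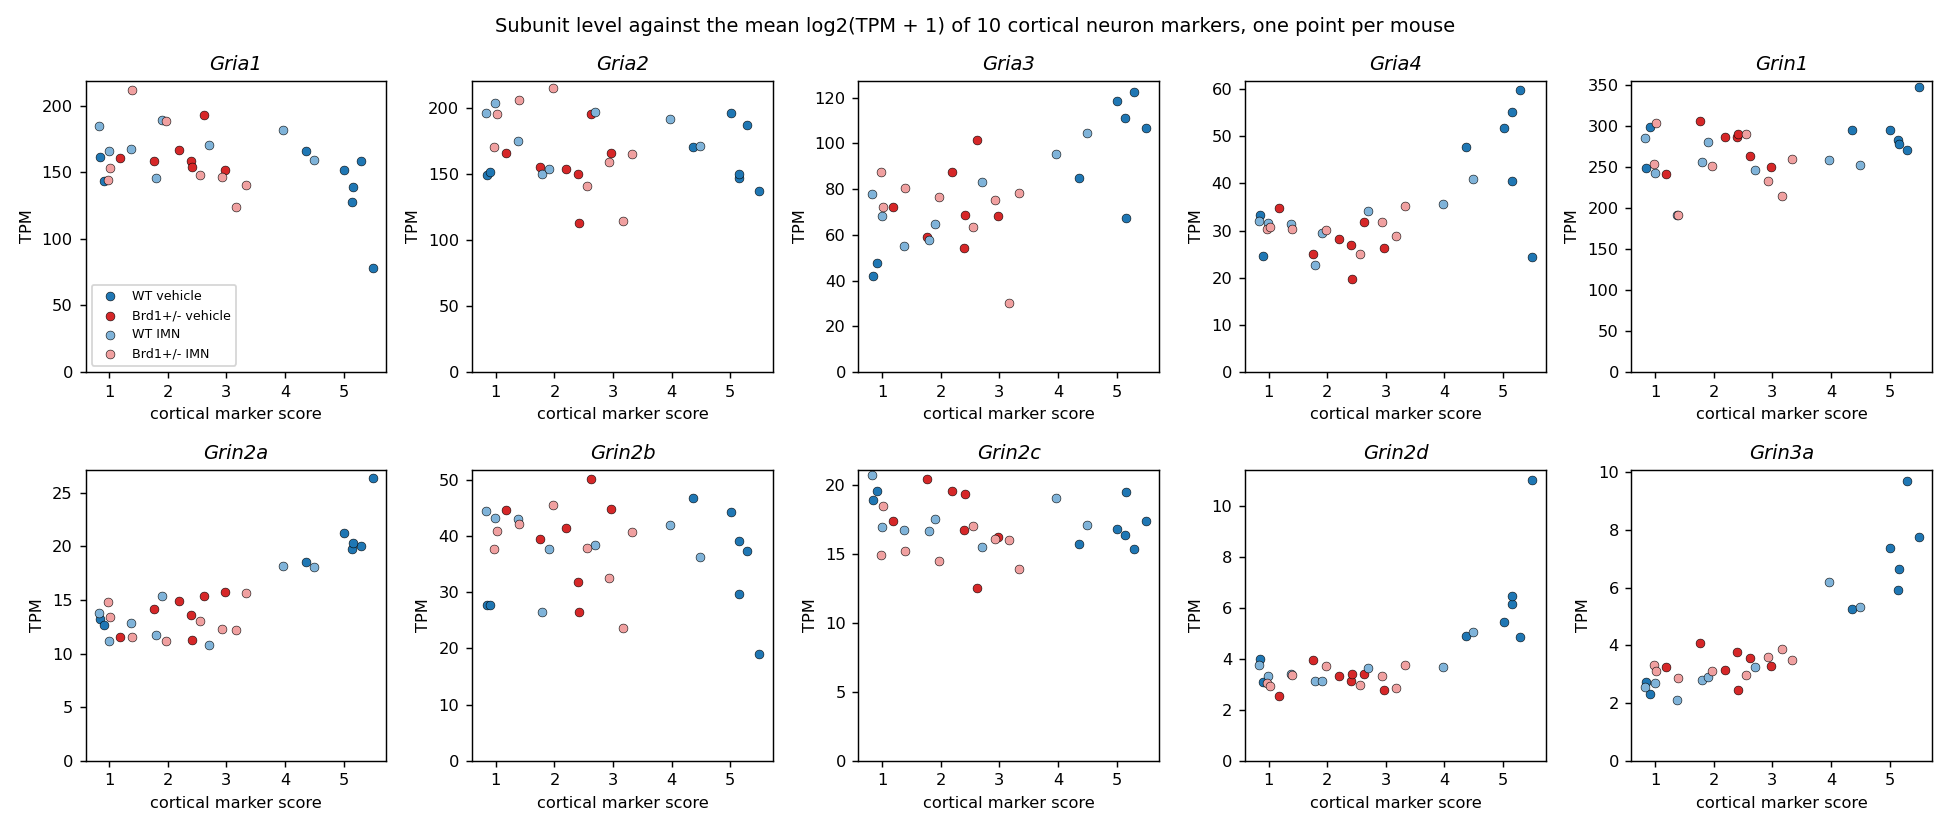
TPM of each subunit (y axis from 0) against the cortical marker score (x axis, mean log2(TPM + 1) of 10 genes) in 31 mice, with a color for each group. Grin2a and Grin3a are highest in the 8 mice with scores of 3.97 and above, 6 WT vehicle and 2 WT IMN mice, and the 2 WT vehicle mice with scores under 1 lie with the other groups.

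Ratios of 2 subunits within a mouse do not depend on how mice are scaled to each other, and 3 were compared, each in 4 comparisons. The log2 ratio of Grin2a to Grin2b, the GluN2 subunits that mark mature and young forebrain synapses, ranged from -1.34 to 0.48 in WT and from -1.96 to -1.23 in Brd1+/- vehicle mice, and 7 of 8 WT mice lay above every Brd1+/- mouse, mice 6 and 8 included at -1.07 and -1.13, while mouse 3 lay within their range at -1.34. The WT mean was -0.82 ± 0.57 (SD, n = 8) and the Brd1+/- mean -1.52 ± 0.26 (SD, n = 7). The difference of -0.69 had p = 0.00155 by an exact permutation test, two-sided, and an adjusted p of 0.0186, the adjustment being over 12 such tests. Without WT mice 2 and 7 the difference was -0.52 (exact permutation test, p = 0.0035, adjusted p = 0.0326), and with each mouse left out in turn it stayed between -0.77 and -0.51 with adjusted p-values of 0.00699 to 0.036. The ratio also moved with the markers: r with the cortical score was 0.58 over the 23 mice outside the WT vehicle group and 0.45 without the 2 farthest, and the part of the markers in the difference was not tested. The log2 ratio of Gria1 to Gria2, which bears on how much of the AMPA receptor pool can lack GluA2, averaged -0.22 ± 0.28 (SD, n = 8) in the WT vehicle group and 0.07 ± 0.19 (SD, n = 7) in the Brd1+/- vehicle group, a difference of 0.29 that missed the adjusted threshold (exact permutation test, p = 0.025, adjusted p = 0.0751). Without WT mice 2 and 7 it was 0.16 (exact permutation test, p = 0.0915, adjusted p = 0.22). The log2 ratio of Gria2 to Grin1, an AMPA to NMDA balance of transcripts, was -0.85 ± 0.26 and -0.82 ± 0.32 in the same groups (exact permutation test, p = 0.838, adjusted p = 0.939), and without mice 2 and 7 the difference was -0.0059.

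**Figure D4:**
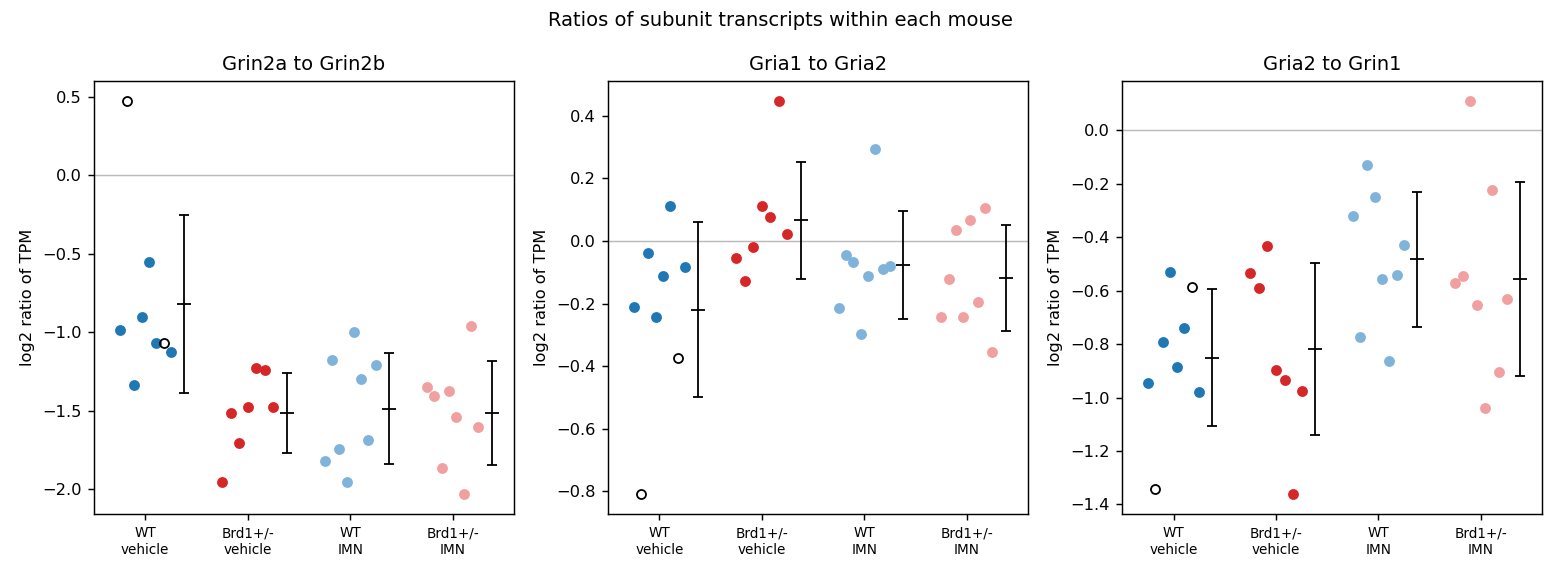
Log2 ratio of TPM (y axis) of Grin2a to Grin2b, Gria1 to Gria2 and Gria2 to Grin1 in each mouse (points) by group, with mean and SD as a bar; the gray line marks equal TPM and open black circles are WT vehicle mice 2 and 7. For Grin2a to Grin2b, 7 of 8 WT vehicle mice lie above every Brd1+/- vehicle mouse, and mouse 2 stands alone at 0.48.

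Under IMN, Brd1+/- and WT mice were compared to ask whether the genotypes differ when treated. None of the 10 subunits passed p under 0.01 in either direction (limma), and 0 had p under 0.05, beside 914 of 23339 genes. The shares over all 23339 genes tested at p under 0.01 were 0.514% lower and 0.189% higher (73.2% of calls on the low side, and 56.3% with median-of-ratios scaling). At an FDR of 5% the share was 0.00428%, which is Brd1 alone. The 10 fitted values were all negative, from -0.14 for Grin2c to -0.0050 for Grin3a, with a median of -0.09 against -0.03 for all genes. Those of Grin1 and Grin3a turned positive under median-of-ratios scaling and quantile normalization. Grin2c, for the GluN2C subunit of astrocytes and cerebellar granule cells, had the smallest p, with 15.5 to 20.7 TPM (median 17.0) in WT and 13.95 to 18.5 TPM (median 15.6) in Brd1+/- IMN mice, where 4 of 8 Brd1+/- mice lay below every WT mouse (log2 fold change -0.14 ± 0.07, SE; limma, adjusted p = 0.998). Grin2d and Grin2a, the subunits called under vehicle, and Grin3a and Gria4, which were not, overlapped between the genotypes here. With WT first and n = 8 mice in each group, Grin2d averaged 3.64 ± 0.610 and 3.25 ± 0.352 TPM (SD), with 4 of 8 Brd1+/- mice below every WT mouse, and Grin2a 13.99 ± 2.94 and 13.0 ± 1.55 TPM. Grin3a averaged 3.47 ± 1.46 and 3.29 ± 0.344 TPM, and Gria4 32.2 ± 5.24 and 30.3 ± 2.85 TPM. The 95% confidence intervals of the log2 fold changes were -0.31 to 0.06 for Grin2d and -0.31 to 0.15 for Grin2a. The log2 ratio of Grin2a to Grin2b was -1.49 ± 0.35 in WT and -1.52 ± 0.33 in Brd1+/- IMN mice (SD, n = 8 each; exact permutation test, p = 0.861, adjusted p = 0.939).

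IMN was compared with vehicle within each genotype, and these comparisons share their vehicle or IMN mice with those above. In WT mice 0 of 10 subunits passed p under 0.01 (limma), where 5.6% of 23579 genes were lower and 1.35% higher (80.6% of calls on the low side, and 52.2% with median-of-ratios scaling), and 0 passed an FDR of 5%, beside 0.00424% of all genes. Unadjusted p was under 0.05 for 5, beside 5453 of the 23579 genes. Grin2d ran from 3.14 to 5.04 TPM (median 3.52) on IMN against 3.08 to 11.0 TPM on vehicle, and 4 of 8 vehicle mice lay above every IMN mouse (log2 fold change -0.48 ± 0.17, SE; limma, adjusted p = 0.147). Grin2a ran from 10.8 to 18.2 TPM (median 13.3) on IMN, and 6 of 8 vehicle mice lay above that range (log2 fold change -0.41 ± 0.15, SE; limma, adjusted p = 0.149). Grin3a was at -0.60 ± 0.24 (SE; limma, adjusted p = 0.169) and Grin1 at -0.20 ± 0.08 (SE; limma, adjusted p = 0.167). Gria1 was on the opposite side, at 146 to 189 TPM (median 169) on IMN against 78.3 to 166 TPM on vehicle (log2 fold change 0.30 ± 0.13, SE; limma, adjusted p = 0.173). Median-of-ratios scaling put Gria1 at 0.43 (limma, adjusted p = 0.164) and Gria2 at 0.29 (limma, adjusted p = 0.164), both past the threshold. Without WT vehicle mice 2 and 7 the count stayed at 0 and 2 subunits were under 0.05, Gria1 (0.19) and Grin2d (-0.33), while Grin2a was at -0.30, Grin3a at -0.47 and Grin1 at -0.15. Over all 23067 genes 1.83% were then lower and 0.88% higher at p under 0.01, and 3045 were under 0.05. With the cortical score as a covariate the count was 0 as well, where 0.827% of all genes were lower and 0.488% higher.

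Among the ratios, Grin2a to Grin2b was lower by 0.67 on IMN in WT mice (log2 difference -0.67; exact permutation test, p = 0.00544, adjusted p = 0.0326), with 4 of 8 vehicle mice above every IMN mouse. The mean cortical score was 4.03 ± 1.97 (SD, n = 8) in the vehicle and 2.25 ± 1.36 (SD, n = 8) in the IMN mice, and the projection neuron score 6.59 ± 1.71 and 7.92 ± 0.278. The part of these markers in the difference was not tested. Without mice 2 and 7 it was -0.49 (exact permutation test, p = 0.017, adjusted p = 0.0679), and it likewise missed the adjusted threshold without WT IMN mouse 1 (-0.62) or 4 (-0.60). Gria2 to Grin1 was higher on IMN, at -0.48 ± 0.25 against -0.85 ± 0.26 (SD, n = 8 each; difference 0.37; exact permutation test, p = 0.0112, adjusted p = 0.0448). That call held in 4 of the 16 fits that left out 1 mouse (difference 0.30 to 0.42) and not without mice 2 and 7 (0.33; exact permutation test, adjusted p = 0.0751). In Brd1+/- mice 0 of 10 subunits passed p under 0.01 (limma), where 0.964% of 23020 genes were lower and 0.869% higher. At p under 0.05 the count was 0 of 10 as well, beside 1633 genes, and at an FDR of 5% the share was 0% of genes. The subunit with the smallest p was Grin1, at 275 ± 23.9 TPM (SD, n = 7) on vehicle and 249.9 ± 37.2 TPM (SD, n = 8) on IMN (log2 fold change -0.15 ± 0.09, SE; limma, adjusted p = 0.783). Grin2d was at 3.22 and 3.25 TPM and Grin3a at 3.36 and 3.29 TPM, with 95% confidence intervals of the log2 fold change of -0.17 to 0.20 and -0.21 to 0.17. The smallest unadjusted p of the ratios in these mice was that of Gria1 to Gria2, lower by 0.18 on IMN (log2 difference -0.18; exact permutation test, p = 0.062, adjusted p = 0.149).

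The interaction tests whether IMN acted differently in the 2 genotypes. It called 0 of 10 subunits at p under 0.01 (limma), where 0.78% of 25394 genes were negative and 2.97% positive (20.8% of calls negative, and 49.7% with median-of-ratios scaling), and 0 at an FDR of 5% (0% of all genes). Unadjusted p was under 0.05 for 4, beside 4119 of the 25394 genes. Grin2d stood at 0.49 ± 0.19 (SE; limma, adjusted p = 0.262) and Gria1 at -0.37 ± 0.16 (SE; limma, adjusted p = 0.277). Gria4 was at 0.47 ± 0.22 (SE; limma, adjusted p = 0.291) and Grin3a at 0.58 ± 0.27 (SE; limma, adjusted p = 0.293). Without WT vehicle mice 2 and 7 these were 0.34, -0.26, 0.52 and 0.45. Of them 3 then had p under 0.05, all but Grin3a, beside 2586 of 25142 genes (limma, adjusted p = 0.483 for the 3 and 0.532 for Grin3a). Without mouse 2 alone the 4 values were 0.36, -0.26, 0.57 and 0.52 in the same order, and Gria4 was under 0.01 (limma, adjusted p = 0.366). A positive value says that the change from vehicle to IMN was higher in Brd1+/- than in WT mice. For the ratios, chosen for this test after their values were seen, the difference between the genotypes in the IMN effect was 0.66 for Grin2a to Grin2b (permutation test within genotype, 100000 draws, p = 0.0297, adjusted p = 0.0456 over 3) and -0.33 for Gria1 to Gria2 (permutation test, p = 0.0304, adjusted p = 0.0456). Without WT vehicle mice 2 and 7 they were 0.49 and -0.20 and did not pass (permutation test, adjusted p = 0.182 and 0.184). For Gria2 to Grin1 the difference was -0.11 (permutation test, p = 0.672).

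Partner genes of the receptors were read from 7 lists, and 19 of 92 tested were lower and 3 higher at p under 0.01 in Brd1+/- vehicle mice, where 12.1% of all genes were lower and 1.47% higher. Under vehicle, 8 other ionotropic receptor subunits were tested and 2 were lower at p under 0.01 in Brd1+/- mice, the kainate receptor subunits Grik1 (5.18 ± 3.13 against 1.20 ± 0.362 TPM; log2 fold change -1.23; limma, adjusted p = 0.0642) and Grik4 (-1.20; limma, adjusted p = 0.0695), while Grik2, at 45.0 ± 23.4 against 66.6 ± 3.02 TPM, did not pass (0.75; limma, adjusted p = 0.104). Of 17 AMPA receptor auxiliary subunits 3 were lower and 1 higher, among them Olfm3 (-0.98) and Cnih3, a cornichon homolog (-0.83). Cacng7, a TARP that sets gating, was at 105 ± 34.6 against 66.5 ± 7.31 TPM (-0.59; limma, adjusted p = 0.0556). Of 12 trafficking and assembly genes 4 were lower and 0 higher, with a list median of -0.52 against -0.13 for all genes. Nsf, the ATPase that binds GluA2, was at 322 ± 78.1 against 207 ± 14.7 TPM (-0.59; limma, adjusted p = 0.0556). Nptx2, a pentraxin that clusters AMPA receptors, was at 50.5 ± 13.9 against 31.15 ± 5.71 TPM (-0.65) and Nptxr, its receptor, at 125 ± 103 against 28.1 ± 21.8 TPM (-2.01). Of 20 postsynaptic scaffold genes 4 were lower (Homer2 at -1.18, Shank2 at -0.81 and Dlgap4 at -0.41 had the smallest p). Of 19 kinases and phosphatases 4 were lower (Cdk5 at -0.39 and Prkaca at -0.38 among them) and 2 higher (Akap5, the anchor of protein kinase A at the receptor, at 0.86). Of 9 genes of glutamate release and clearance 2 were lower, among them the glutamate transporter gene Slc1a6 at -0.81. Of 7 tested genes of co-agonist supply 0 passed in either direction. Only the transporter gene Slc1a4 was under 0.05 (-0.24, limma, adjusted p = 0.16), where 7168 of 23200 genes were. Further calls, named after their values were seen, were Cacng4 (1.05), Grip2 (-0.88), Shank1 (-1.47), Camk2a (-0.42), Camk2g (-0.89) and the striatum-enriched phosphatase gene Ptpn5 (0.90). List medians were 0.0099 for the other receptors, -0.13 for auxiliary subunits, -0.08 for scaffold genes, -0.13 for kinases and phosphatases, -0.24 for release and clearance and -0.18 for co-agonist supply. The smallest adjusted p in these lists was 0.0556 (limma), and 0 genes passed an FDR of 5%. With the IMN genotype comparison the counts at p under 0.01 were 0 in all 7 lists (limma). Of the 92 partner genes 3 were under 0.05, where 914 of 23339 genes were. In Brd1+/- mice IMN against vehicle likewise gave 0 calls, with 12 of 92 under 0.05, where 1633 of 23020 genes were. In WT mice on IMN against vehicle 4 of 92 partner genes were lower at p under 0.01 and 0 higher, where 5.6% of all genes were lower and 1.35% higher, among them Nptx2 (-0.79), Prkaca (-0.36) and Slc1a6 (-0.81). The interaction called 2 of 92 in each direction, where 2.97% of all genes were positive and 0.78% negative, Cacng7 (0.56) and Cdk5 (0.33) positive and Dlgap2 (-0.63) and, chosen after its value was seen, Cacng4 (-1.09) negative. Without WT vehicle mice 2 and 7, 6 of 92 partner genes were lower and 1 higher under vehicle, against 19 and 3 with all mice, where 5.19% of all genes were lower and 0.637% higher. The 7 were Homer2 (-1.06), Nsf (-0.51), Cacng7 (-0.49), Nptxr (-1.95), Cdk5 (-0.36), Prkaca (-0.30) and Akap5 (0.84). The other calls ended. The lists of other receptor subunits and of glutamate release and clearance then had 0 calls, with Grik1 at -1.03, Grik4 at -1.13 and Slc1a6 at -0.53 (limma, adjusted p = 0.186, 0.181 and 0.172), and Grik2 was at 0.52. Olfm3 was at -0.88, Cnih3 at -0.65 and Cacng4 at 0.78 among auxiliary subunits, Nptx2 at -0.56 and Grip2 at -0.74 among trafficking genes, and Shank1 at -1.21, Shank2 at -0.70 and Dlgap4 at -0.37 among scaffold genes. Camk2a was at -0.33, Camk2g at -0.71, Ptpn5 at 0.77 and Slc1a4 at -0.19. The median of the trafficking list was -0.45, with 2 lower, against -0.12 for all genes.

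With the cortical score as a covariate 2 of 92 partner genes were lower and 1 higher under vehicle, where 1.6% of all genes were lower and 0.125% higher. They were Nsf (-0.24; limma, adjusted p = 0.389) and Homer2 (-0.63; limma, adjusted p = 0.485) on the low side and Slc17a7, itself 1 of the markers in the score, on the high side. Grik1 was then at -0.27, Grik4 at -0.29 and Slc1a6 at -0.30, and the median of the trafficking list at -0.20 against -0.06 for all genes. For IMN in WT mice, leaving out WT vehicle mice 2 and 7 gave 3 of 92 lower and 0 higher, where 1.83% of all genes were lower. Nptx2 (-0.71) and Prkaca (-0.29) were among them, with Grik5 (-0.23), named after its value was seen, and Slc1a6 was no longer called (-0.54; limma, adjusted p = 0.36). The covariate left 1 call there, Nptx2 (-0.41; limma, adjusted p = 0.732), where 0.827% of all genes were lower. For the interaction, 2 of 92 were negative and 0 positive without the 2 mice, Dlgap2 (-0.53) and Cacng4 (-0.82), where 0.485% of all genes were negative and 1.14% positive, while Cacng7 (0.45) and Cdk5 (0.30) no longer passed (limma, adjusted p = 0.483 for all 4). With the covariate 1 was negative, Slc17a7, and 0 positive, where 0.272% of all genes were negative and 0.618% positive.

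Across the 31 mice, some pairs of subunits varied together. These values are a description of libraries that share 1 table and the marker differences given above. Pearson's r of log2(TPM + 1) was 0.85 between Grin2a and Grin3a, 0.80 between Grin2a and Grin2d and 0.74 between Grin2d and Grin3a, and 0.74 between Gria2 and Grin2b and 0.71 between Gria1 and Grin2b. Without WT vehicle mouse 2 these were 0.83, 0.74, 0.73, 0.75 and 0.55. Gria4 had an r of 0.67 with Grin3a, 0.53 with Grin2a and 0.41 with Grin2d, and without that mouse 0.81, 0.73 and 0.76. The r of -0.58 between Gria1 and Grin2d rested on that mouse and was -0.16 without it. Among 12166 genes with a mean of at least 5 TPM, the genes most like a subunit over the 31 mice were Tcf20 and Ash1l for Grin2b (r = 0.95 and 0.92), Coro6 and Asb13 for Grin2d (0.95 and 0.94), and Ndfip1 and Dner for Grin3a (0.95 and 0.94). They were Mctp1 for Gria1 (0.93), Pip4k2c and Kcnh7 for Grin2a (0.92 and 0.91), Gm38020 and Zkscan16 for Gria2 (0.91 and 0.86), and Rabgap1l and Sec23a for Gria4 (0.88 and 0.88). Ptprj and Wdr48 for Gria3 (0.82 and 0.81), Kcnh3 and Lynx1 for Grin1 (0.76 and 0.75), and Nhp2 and Gdf1 for Grin2c (0.72 and 0.69) were less alike. Without mouse 2 the r of these pairs lay between 0.69 and 0.94.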

How the data were processed

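RNA from 31 punches labelled as CPu was sequenced (the markers of several WT vehicle libraries, most of all mouse 2, go against that label), and a single table of TPM per gene was deposited. Per the labels and the methods of the study, the authors checked reads with FastQC, trimmed them with Trimmomatic, aligned them to GRCm38 with HISAT2 2.1.0 and estimated TPM with StringTie 1.3.4. TPM sums to a fixed total (999787 to 999918 per mouse), so the depth of a library is not in the table, a large change in a few abundant genes moves all other values, and no count test was run, although the study used edgeR on counts. The table has 0 columns that were not used. Identifiers were named from GENCODE M21, which also gave positions.

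TPM was taken as log2(TPM + 1), and a gene was tested where 7 or more of the fitted mice exceeded 0.1 TPM, with limma 3.58.1 in R 4.3.3 (empirical Bayes, trend in the prior variance, two-sided), as 4 comparisons of 2 groups and the genotype by IMN interaction over 4 groups. P-values were adjusted by Benjamini-Hochberg over all genes tested; a gene was called at p under 0.01, the nominal threshold of the study, and separately at an FDR of 5%. Tests were checked on simulated data. Each mouse is 1 sample. Ratios were compared with exact permutation tests (Python 3.11.15, numpy 2.4.6, scipy 1.17.1), adjusted over 12 tests. A covariate fit adds a marker score of the mouse to the model. All 10 subunits are named, with the 2 genes most like each by Pearson's r and, from each partner list, the 3 genes with the smallest p under vehicle and the 1 with the smallest p in other comparisons, of which those that bear on a call are printed. Some listed genes are counted but not reported here by name. The members, lists and tests were chosen with earlier results of these data known.

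Alternatives were another pseudocount (0.1), other filters, scalings, weights, covariates, mouse number as a replicate block, 1 fit of all groups, and leaving out each mouse. Leaving out WT vehicle mice 2 and 7 together, the partner genes under that and the covariate, the subunit shares and correlations without these mice, and the permutation test of the ratio interaction were added after seeing the data. Numbers of mice did not pair them across groups.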

Additional observations from a re-analysis of the deposited data

Results flagged for a closer look

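A single mouse was taken to stand apart where its gap to the nearest mouse of its group exceeded Dixon's 95% critical value for that group size. This was asked of 52 sets of values and marked 10, and chance marks about 1 in 20. WT vehicle mouse 2, the library with near absent projection neuron markers, was marked for the lowest Gria1 of its group (78.3 TPM), the highest Grin2d (11.0 TPM) and the highest log2 ratio of Grin2a to Grin2b (0.48). In the Brd1+/- vehicle group, mouse 3 had the highest Gria1 (193 TPM) and mouse 6 the highest log2 ratio of Gria1 to Gria2 (0.45). In the WT IMN group, mouse 3 had the lowest Grin1 (192 TPM), mouse 2 the lowest Grin2b (26.5 TPM), mouse 5, which had the highest cortical marker score of its group (4.49), the highest Grin2d (5.04 TPM), and mouse 6 the highest log2 ratio of Gria1 to Gria2 (0.30). In the Brd1+/- IMN group, mouse 7 had the lowest Gria3 (30.2 TPM).

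For a pair of ratios the effect of IMN differed between the genotypes by the permutation test of the difference itself, by 0.66 for Grin2a to Grin2b and -0.33 for Gria1 to Gria2 on the log2 scale. Neither passed without WT vehicle mice 2 and 7.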

How the results depend on the processing

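TPM without read counts leaves the precision of single values unknown, and the low genes Grin2d and Grin3a, at a few TPM, are limited most by it. Other settings, with all mice or without WT vehicle mice 2 and 7, gave 657 values of 67 results. Most of these results were of subunits or ratios not called with the main settings. Of the 657 values, 557 kept direction and side of the threshold or, for counts of subunits called, stayed equal or close. For those that did not, the cause was not tested.

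At p under 0.01, 2 subunits and 13.6% of all genes were called under vehicle. The number was 1 with median-of-ratios scaling (9.23% of genes), 0 with quantile normalization (9.53%) or with a cortical or striatal marker covariate (1.72% and 1.27%), 4 with sample quality weights (26.5%) or with all 4 groups in 1 fit (21.2%), and 1 to 4 with 1 mouse left out (10 of 15 fits moved it). For IMN in WT mice, 0 with all mice (6.95% of genes), it was 2 with either scaling (5.98% and 5.8%), 4 with weights (20.3%), 3 in 1 fit (14.4%), and 0 to 3 with 1 mouse left out (3 without WT vehicle mouse 6 or 8, 2 without WT IMN mouse 5 or 8). For the interaction, also 0 (3.74%), it was 1 with either scaling (3.18% and 3.39%), 4 with weights (13.6%), and 0 to 3 with 1 mouse left out (3 without WT vehicle mouse 8). The share of all genes is not given for the fits with 1 mouse left out. Their counts therefore do not set the subunits apart from other genes. At an FDR of 5% under vehicle, 0 subunits and 0 genes passed as reported, 1 and 1833 with a mean TPM of at least 1, 4 and 6854 with weights, 4 and 5044 in 1 fit, 0 and 2 with a pseudocount of 0.1, and 0 and 1 without mice 2 and 7. For IMN in WT, 0 subunits and 1 gene became 4 and 4857 with weights and 3 and 2400 in 1 fit. For the interaction, 0 and 0 became 3 and 2624 with weights.

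Mouse numbers do not pair the mice (mean r of same-numbered mice -0.02 to 0.08). With the number as a replicate block, 4 subunits under vehicle (17.7% of genes, and 4 and 3583 at an FDR of 5%) and 1 for IMN in WT (5.08%) were called (limma). Grin2c under vehicle turned to 0.014. For the ratios the test here flipped the signs of the differences between same-numbered mice. There were 7 such pairs under vehicle, without WT mouse 8, and 8 for IMN in WT. The lowest p this test can reach is higher than that of the main permutation test. The Grin2a to Grin2b difference was -0.74 under vehicle and -0.67 for IMN in WT (exact sign-flip test, adjusted p = 0.0625 for both), and 0.010 for IMN in Brd1+/-. Gria2 to Grin1 for IMN in WT was 0.37 (exact sign-flip test, adjusted p = 0.0703).

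For the ratios, leaving out WT vehicle mice 2 and 7 gave -0.49 for Grin2a to Grin2b and 0.33 for Gria2 to Grin1 with IMN in WT, and turned Gria2 to Grin1 under vehicle to -0.0059. A pseudocount of 1 turned Grin2a to Grin2b for IMN in Brd1+/- to 0.0011. With 1 mouse left out, Grin2a to Grin2b was -0.11 to 0.044 between genotypes under IMN, -0.74 to -0.48 for IMN in WT and -0.082 to 0.071 for IMN in Brd1+/-. Gria1 to Gria2 was 0.20 to 0.33 under vehicle, past the threshold without WT vehicle mouse 6, and -0.074 to 0.011 under IMN. Gria2 to Grin1 was -0.038 to 0.12 under vehicle and 0.30 to 0.42 for IMN in WT.

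Log2 fold changes that changed sign were uncalled in each of these fits. Under vehicle, median-of-ratios scaling gave 0.15 for Gria2, 0.0023 for Gria3, 0.12 for Grin1 and 0.17 for Grin2c, and quantile normalization 0.18, 0.012, 0.12 and 0.20. Weights gave 0.029 for Grin2c, the cortical covariate 0.28 for Gria3, and the striatal covariate -0.040 for Gria1, 0.10 for Gria3 and 0.0058 for Grin1. Under IMN, Grin1 was 0.027 with median-of-ratios, 0.015 with quantile and 0.038 with weights, Grin2a 0.0013 with weights, and Grin3a 0.0092 with pseudocount 0.1, 0.033, 0.031 and 0.083 with these 3, and 0.014 and 0.021 with the cortical and striatal covariates. For IMN in WT, Gria3 was 0.017 with quantile, 0.29 and 0.14 with the covariates and 0.012 without mice 2 and 7, and Grin2c -0.048, -0.013 and -0.0017 in the last 3. For IMN in Brd1+/-, the striatal covariate gave 0.027 for Gria3, 0.017 for Grin2c and -0.041 for Grin2d, and quantile -0.026 for Grin2d. For the interaction, Gria3 was -0.080 and -0.088 with the scalings, -0.24 and -0.24 with the covariates and -0.091 without mice 2 and 7, Grin1 -0.085, -0.11 and, with the striatal covariate, -0.015, and Gria2 0.028 with that covariate.

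With 1 mouse left out, under vehicle Gria2 ran from -0.097 to 0.035 and Grin2c from -0.047 to 0.064. Under IMN, Gria3 ran from -0.19 to 0.035, Grin1 from -0.072 to 0.036, Grin2b from -0.13 to 0.034 and Grin3a from -0.073 to 0.10. For IMN in WT, Grin2c ran from -0.027 to 0.030. For IMN in Brd1+/-, Gria3 ran from -0.14 to 0.084, Grin2b from -0.17 to 0.012, Grin2d from -0.029 to 0.051 and Grin3a from -0.071 to 0.021. For the interaction, Gria2 ran from -0.13 to 0.029 and Gria3 from -0.022 to 0.22.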
